A study of Mus musculus with 3 samples.

Results

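The genes described here are 36 genes of glycolysis and of the cell's response to low oxygen, followed through 3 culture states of mouse cardiac myofibroblasts. They were chosen by name, and each was found on the array through the RefSeq transcript of its probes. Of the 36 genes, 35 were measured, out of 15394 genes measured in all. Mxi1, a repressor that competes with Myc for its partner Max, had 1 probe, which was too dim on each array, with signals of 6.66, 12.2 and 6.74 units in adherent, non-adherent and re-adherent cells. The members were 15 glycolytic enzymes, 6 carriers and switches of the pathway, 13 other genes induced by hypoxia, and the 2 HIF alpha subunits Hif1a and Epas1.

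Glycolysis splits glucose into pyruvate in the cytosol, and lactate dehydrogenase and the lactate carriers let it run without oxygen. When oxygen is low, HIF alpha subunits escape the prolyl hydroxylases encoded by Egln1 and Egln3, pair with the protein of Arnt and bind promoters that carry the core letters ACGTG or GCGTG. Many glycolytic enzymes, glucose carriers, angiogenic factors and mitophagy receptors are known targets. The arrays measured RNA, so neither oxygen nor HIF protein is part of these data.

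Expression was measured with 1-colour Agilent arrays in cells from C57BL/6J male mice, given as 8 weeks old in one label and 10 weeks old in another. Hearts were taken 3 days after the left anterior descending coronary artery had been tied permanently, and cells that attached to plastic overnight and lacked CD45 were taken as myofibroblasts. Adherent cells were then kept on plastic plates, non-adherent cells were moved from plates into suspension, and re-adherent cells went from suspension back to plates. All groups shared the strain, sex, infarction, attachment step and CD45 depletion, and each RNA sample pooled several hearts. Many cells are lost in suspension in this protocol, and each later state had spent longer in culture, so time and state cannot be told apart. Each state had 1 array, so no difference below has a replicate check or a p-value.

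Of 59305 non-control spots, 53.9% to 59.9% were well above background, and the scaling value of each array, the 75th percentile of its signal, lay between 541 and 697 units. All 35 measured members were well above background on all 3 arrays. A scaled signal below is a multiple of that percentile, a log2 difference compares the scaled signals of 1 probe on a pair of arrays, and the technical error of such a difference was about 0.20. A gene counted as changed when the difference was over 2-fold. Signals of different probes are not read as relative amounts of RNA, since probes differ in brightness for the same amount. The sums over marker probes and the ranking of the brightest genes do rest on probe brightness.

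The labelled cell type was checked against marker genes. The summed scaled signal of 6 myofibroblast markers was 2068 on the adherent, 223 on the non-adherent and 2057 on the re-adherent array, and 5 of the 6 were over 2-fold lower in suspension. The sums of 10 fibroblast markers were 1118, 895 and 843. A sum mostly follows its brightest probes, here that of Col1a2 with 530, 264 and 420, and hides opposite changes. In suspension 4 fibroblast markers fell past 2-fold: Thy1 by 11.3-fold, Tcf21 by 3.35-fold, Ddr2 by 2.13-fold and Col1a2 by 2.01-fold. Against these, 2 rose past it, Lum by 11.8-fold and Dcn by 3.24-fold. After re-adhesion Lum was 7.23-fold and Dcn 2.85-fold below the adherent level. Of 17 macrophage markers, 15 were measured, and 14 of these were over 2-fold higher in suspension, with sums of 218, 1353 and 455. Itgam alone lay lower there, at -0.84 on the log2 scale. In re-adherent against adherent cells 7 of the 15 were over 2-fold higher and 0 lower, where 4.84% and 4.90% of all genes were. The markers Cd68 and Cd163 were not measured. Ptprc, which encodes the CD45 used for depletion, had scaled signals of 0.546, 3.50 and 0.982. The 10 endothelial markers summed to 23.8, 38.9 and 22.3, with 7 over 2-fold higher in suspension. Kdr, with 14.5, 11.4 and 19.1, made up most of the adherent and re-adherent sums. The re-adherent array fell more than 2-fold below the adherent one for 7 of the 10, with a median log2 difference of -1.99 over the list. Kdr alone lay higher there, by 0.39. On the re-adherent array 7 of the 10 were well above background. The sums of 6 measured cardiomyocyte markers stayed between 1.29 and 3.39 and those of 2 lymphocyte markers between 3.57 and 5.25. In such mixed RNA, fewer cells of a type and less RNA per cell cannot be told apart. The part of macrophages and endothelial cells in the changes below was not tested.

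Promoter stretches of 7 members are shown because these genes carry the main contrasts below, 5 that rose in suspension, Ldha that stayed within 2-fold, and Adm that fell. The sequences are from RefSeq (GRCm38.p6), read 5′ to 3′ on the strand of the gene, and capitals mark ACGTG or GCGTG on either strand, so that CACGT and CACGC are their reverse complements.
Car9 (chr4:43506966-43507025, plus strand): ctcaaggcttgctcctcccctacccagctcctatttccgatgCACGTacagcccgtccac
Ankrd37 (chr8:45999973-46000032, minus strand): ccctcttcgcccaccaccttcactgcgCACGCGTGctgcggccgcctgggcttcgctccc
Pfkfb4 (chr9:108991757-108991816, plus strand): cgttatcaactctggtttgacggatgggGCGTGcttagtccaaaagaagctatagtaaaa
Pdk1 (chr2:71873118-71873177, plus strand): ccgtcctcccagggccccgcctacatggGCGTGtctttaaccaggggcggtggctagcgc
Aldoc (chr11:78322995-78323054, plus strand): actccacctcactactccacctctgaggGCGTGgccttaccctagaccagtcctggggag
Ldha (chr7:46845733-46845792, plus strand): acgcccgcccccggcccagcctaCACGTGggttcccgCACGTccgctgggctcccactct
Adm (chr7:110627557-110627616, plus strand): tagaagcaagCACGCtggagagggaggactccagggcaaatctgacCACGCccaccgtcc

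Each stretch was the 60 bases, within the 250 before the start, that held the most matches to ACGTG or GCGTG. A match in it was therefore given by the choice. In these stretches Car9 and Ldha held the ACGTG form, while Ankrd37, Pfkfb4, Pdk1, Aldoc and Adm held the GCGTG form. In Ankrd37 a forward and a reverse GCGTG overlapped, and in Ldha a forward and a reverse ACGTG did. Over the first listed window of each gene, 250 bases before to 50 after its start, 25 of 32 members (78.1%) held at least 1 of these letters, against 11836 of all 27025 genes (43.8%). By role these were 10 of 15 glycolytic enzymes, 5 of 5 carriers and switches and 9 of 11 other hypoxia-induced genes. Of the 7 genes shown, Ankrd37 (2 ACGTG and 2 GCGTG), Aldoc (1 and 2) and Ldha (5 and 2) held both forms over that window. ACGTG alone was found in 19.6% and GCGTG in 32.4% of all 32851 windows, so a match by itself is common. Bnip3l, Epas1, Ndrg1 and Slc2a3 were not among the promoters matched. The 7 members without a match in that window were Eno2, which rose in suspension, and Aldoa, Gpi1, Hk1, Mxi1, Tpi1 and Vegfa, while Adm, which fell, held 2. Of the 7, Aldoa, Hk1, Mxi1 and Vegfa held a match in another of their listed windows, and Eno2, Gpi1 and Tpi1 had 1 window each.

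In suspension members of each role but the HIF subunits passed 2-fold. Over 2-fold higher were 2 of 15 glycolytic enzymes, 2 of 6 carriers and switches and 4 of 12 other hypoxia-induced genes. Of the 12, 1 was over 2-fold lower. Among all genes 17.2% were higher and 14.7% lower past 2-fold. Of the 35 members, 8 were over 2-fold higher in non-adherent than in adherent cells (22.9%, where 17.2% of all genes were), and 1 was over 2-fold lower (14.7% of all genes were). The 8 were the carbonic anhydrase gene Car9, the ankyrin repeat gene Ankrd37, the mitophagy receptor gene Bnip3l, the stress gene Ndrg1, the regulators Pfkfb4 and Pdk1, and Aldoc and Eno2, which encode the brain-type aldolase and the neuronal enolase. Adm, the gene of the vasodilator peptide adrenomedullin, was the member over 2-fold lower. The other 13 of the 15 glycolytic enzymes, those left once the 2 past 2-fold were set aside, lay between -0.72 for Eno1 and 0.20 for Gpi1. With spike-in scaling Eno1 was at -1.07, past 2-fold. The share of members beyond 2 technical errors, 54.3%, was below the 59.3% of all genes.

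**Figure D1:**
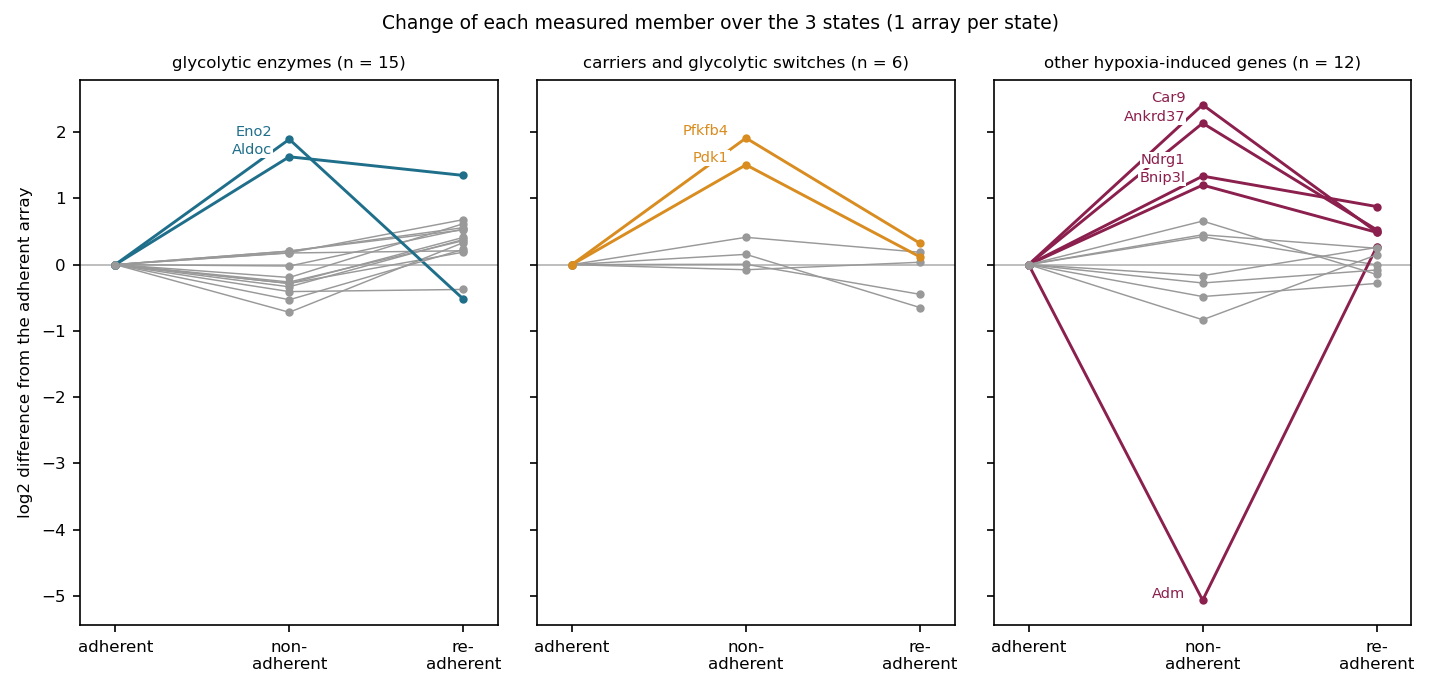
Log2 difference of each measured member from the adherent array (y axis) over the 3 states (x axis), by role, with 1 array per state and the 9 members over 2-fold different in suspension named and coloured. Car9 reached 2.41 and Adm -5.07 in suspension, and grey lines, the other members, stayed between -0.83 and 0.66 there.

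Among the glycolytic enzymes, the first steps gave differences within 2-fold. Hexokinase traps glucose in the cell, and Hk1, its broadly expressed form, had scaled signals of 17.4, 15.2 and 26.7 in adherent, non-adherent and re-adherent cells, the order used below, and log2 differences of -0.19 in suspension and 0.62 in re-adherent against adherent cells. Hk2, the form tied to insulin-responsive tissue and hypoxia, had 4.13, 3.11 and 3.18, so that both later arrays lay below the adherent one. Gpi1, which encodes the isomerase that follows, had 124, 143 and 183 and was highest after re-adhesion, except without scaling and with quantile normalisation. The 3 phosphofructokinase genes Pfkl, Pfkp and Pfkm encode the committed step, and their log2 differences in suspension were 0.18, -0.28 and -0.26. Pfkm was spotted 10 times, with scaled signals of 3.27, 2.73 and 4.20, and its 3 spot SDs were 0.14, 0.04 and 0.06 on the log2 scale. For Pfkl and Pfkp re-adherent cells differed from adherent cells by 0.21 and 0.19, about the size of the technical error, and both differences turned negative without scaling and with spike-in scaling. The second, dimmer Pfkp probe gave -0.31 there and -0.83 in suspension.

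Aldolase cleaves the sugar, and its 2 measured genes parted. Aldoa, the muscle and general form, had scaled signals of 291, 330 and 466, highest on the re-adherent array except with quantile normalisation. Aldoc had scaled signals of 1.95 on the adherent, 6.03 on the non-adherent and 4.96 on the re-adherent array, a 3.09-fold rise in suspension. Re-adherent cells were still 2.54-fold over adherent cells, and Aldoc was the single member over 2-fold higher there. The change of Aldoc in suspension exceeded that of Aldoa by 1.45 ± 0.29 on the log2 scale (technical error).

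The middle of the pathway moved little. Tpi1, which interconverts the triose phosphates, had scaled signals of 61.2, 60.3 and 88.8, and Gapdh, the oxidising step often used as a reference gene, had 572, 453 and 743. All 7 Gapdh probes were lowest in suspension and highest after re-adhesion, with log2 differences in suspension between -0.46 and -0.14, although quantile normalisation put the brightest of them at 0.05. Pgk1, the first ATP-yielding kinase, had 117, 95.7 and 155. Pgam1, the mutase, had 112, 129 and 161. For these 4 genes re-adherent cells lay 0.38 to 0.54 above adherent cells on the log2 scale, except that spike-in scaling put Gapdh and Pgk1 below them. Against suspension the sign was the same, but it turned for Pgam1 without scaling and for Pgam1 and Tpi1 with quantile normalisation. None of the 4 passed 2-fold.

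Enolase acts just before the last step of the route. Eno1, the general form, had scaled signals of 277, 168 and 349, a log2 difference of -0.72 in suspension and a 2.07-fold rise on re-adhesion. Eno2 had 0.584, 2.16 and 0.407, a 3.71-fold rise in suspension and a 5.32-fold fall on re-adhesion, and its re-adherent level was the lowest of the 3. The 2 forms therefore ran in opposite directions in both steps, with a difference in change of 2.61 ± 0.29 in suspension and -3.46 ± 0.29 on re-adhesion (log2, technical error). The rise of Eno1 on re-adhesion lay just past 2-fold and was 0.26 after quantile normalisation. Ldha, whose product turns pyruvate into lactate, had 378, 261 and 443, the lowest in suspension at -0.53 (0.01 after quantile normalisation) and within 2-fold in each comparison.

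**Figure D2:**
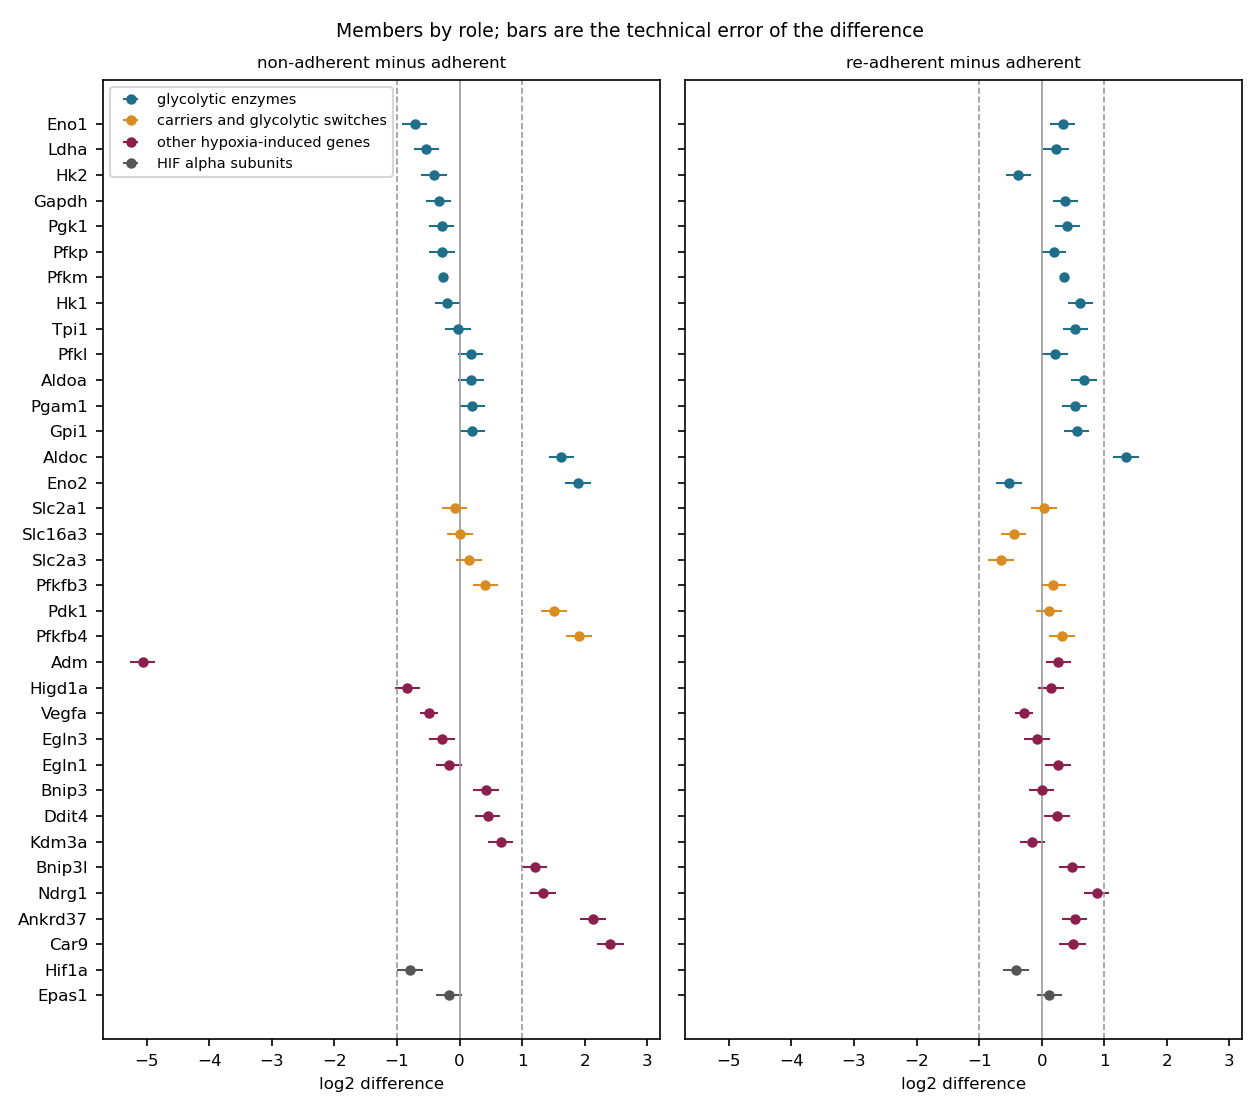
Log2 difference of each measured member (points) with the technical error of the difference (bars), for non-adherent minus adherent (left) and re-adherent minus adherent (right), coloured by role, with dashed lines at 2-fold. On the left 8 members lie right of the dashed line and Adm far to the left, and on the right Aldoc alone lies beyond it.

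Of the carriers and switches, the 3 carriers are described first. The glucose carrier Slc2a1 had scaled signals of 10.0, 9.52 and 10.3, and the lactate exporter Slc16a3 had 17.4, 17.5 and 12.8, so neither differed in suspension by more than its technical error. Slc2a3, the high-affinity glucose carrier, had 0.417, 0.464 and 0.266, lowest after re-adhesion at -0.65 against adherent cells. None of the 3 carriers passed 2-fold.

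Pfkfb3 and Pfkfb4 set the level of fructose 2,6-bisphosphate, the activator of phosphofructokinase. Pfkfb4 had scaled signals of 1.69 on the adherent, 6.34 on the non-adherent and 2.11 on the re-adherent array, a 3.76-fold rise and a 3.01-fold fall. The non-adherent array stood alone, and the other arrays differed by 0.32 on the log2 scale. Pfkfb3 had 3.80, 5.06 and 4.33, and its change in suspension was 0.41 on the log2 scale. Its spot on the non-adherent array lay in a patch of 5 by 5 spots that deviated upwards by 0.56 (log2). The second, much dimmer Pfkfb3 probe gave 0.33. Pdk1, which encodes a kinase that shuts off pyruvate dehydrogenase and so keeps pyruvate out of the mitochondria, had 0.573, 1.63 and 0.622, a 2.84-fold rise and a 2.62-fold fall. Its re-adherent level lay 0.12 from the adherent level, within the technical error.

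Among the other hypoxia-induced genes, 4 rose past 2-fold in suspension, 1 fell past it and 7 stayed within it. Of all genes 17.2% rose and 14.7% fell past 2-fold. Car9 encodes a membrane carbonic anhydrase that handles acid at the cell surface and is widely used as a marker of hypoxia. Its scaled signals were 0.196, 1.04 and 0.276, a 5.32-fold rise in suspension and a 3.78-fold fall on re-adhesion. Ankrd37 had 0.743, 3.26 and 1.07, a 4.39-fold rise and a 3.05-fold fall. For both genes the non-adherent array was far above the others, and re-adherent cells lay 0.49 and 0.53 above adherent cells on the log2 scale.

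The 2 mitophagy receptor genes, whose products mark mitochondria for removal, differed in size. Bnip3l had scaled signals of 7.58, 17.4 and 10.6, a log2 rise of 1.20, and its 4 probes gave log2 differences between 1.17 and 1.34. Bnip3 had 8.86, 11.9 and 8.83, a log2 difference of 0.42, and re-adherent and adherent cells differed by less than 0.01. Ndrg1 had 1.89, 4.76 and 3.46, a 2.52-fold rise in suspension, and re-adherent cells lay 0.88 above adherent cells, the second largest such difference among the members after Aldoc. Both Bnip3l and Ndrg1 were highest in suspension, with the re-adherent array in between, except that Bnip3l was at -0.02 against adherent cells with spike-in scaling.

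Adm moved the other way and further than any other member. Its signals were 24649, 788 and 24622 units, or scaled signals of 37.9, 1.13 and 45.5, a 33.5-fold fall in suspension and a 40.2-fold rise on re-adhesion. The adherent and re-adherent arrays were close, at 0.26 on the log2 scale, and the non-adherent array was far below both. Vegfa, the angiogenic growth factor that shares the hypoxia label, had scaled signals of 6.30, 4.51 and 5.17 with its brighter probe, a log2 difference of -0.48 in suspension. Its second probe, which lies on another transcript, gave -1.31 in suspension and 1.08 on re-adhesion, so Vegfa was lower in suspension with both probes, by an amount that depended on the probe. The change of Adm minus that of Vegfa was -4.58 ± 0.25 in suspension (log2, technical error).

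In suspension the remaining hypoxia-induced genes stayed within 2-fold, except Higd1a with spike-in scaling. Egln1 and Egln3, the oxygen sensors that are induced by HIF in turn, had log2 differences of -0.17 and -0.28 in suspension, close to the technical error. Kdm3a, a histone demethylase, had scaled signals of 2.88, 4.55 and 2.60, and Ddit4, an inhibitor of the growth kinase mTOR, had 15.0, 20.6 and 17.8. Both were highest in suspension, at 0.66 and 0.45. Higd1a, a mitochondrial protein of the respiratory chain, had 56.8, 31.9 and 63.0, which put suspension lowest at -0.83 (-1.18 with spike-in scaling).

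The HIF subunits themselves were not higher in suspension. Hif1a had scaled signals of 3.86, 2.22 and 2.89, a log2 difference of -0.79 (-1.15 with spike-in scaling), with the non-adherent array lowest. Epas1 had 23.4, 20.8 and 25.5 with its brightest probe, a difference of -0.17, and its 3 probes ranged from -0.89 to -0.17. HIF alpha is controlled mainly through the stability of the protein, which arrays do not show. The partner Arnt and the degradation factor Vhl were at 0.11 and 0.06 in suspension.

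The groups were then compared by their medians, taken relative to that of all genes, which was -0.07, 0.08 and 0.06 for suspension, re-adhesion and re-adherent against adherent cells. In suspension the relative median was -0.12 for the 15 glycolytic enzymes, 0.35 for the 6 carriers and switches and 0.51 for the 12 other hypoxia-induced genes. From suspension to re-adhesion it was 0.42, -0.71 and -0.39 in the same order. The enzyme values were not stable to the processing: in suspension the value was 0.07 and on re-adhesion -0.0065 with quantile normalisation, and the mean in place of the median gave 0.15 in suspension. The mean of the other hypoxia-induced genes on re-adhesion was 0.0038. The 2 steps share the non-adherent array, so their opposite signs are not separate observations. Without Aldoc and Eno2 the enzyme medians were -0.19 and 0.48.

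On re-adhesion 5 members were over 2-fold lower than in suspension, Eno2, Pfkfb4, Pdk1, Car9 and Ankrd37 (16.3% of all genes were), and 2 were over 2-fold higher, Adm and Eno1 (15.6% of all genes were). Past 4-fold there were Car9, Ankrd37 and Adm in suspension, where 13.0% of all genes lay past 4-fold in either direction, and Eno2 and Adm on re-adhesion, where 11.8% did. These shares show that changes of such size were common across the arrays.

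**Figure D3:**
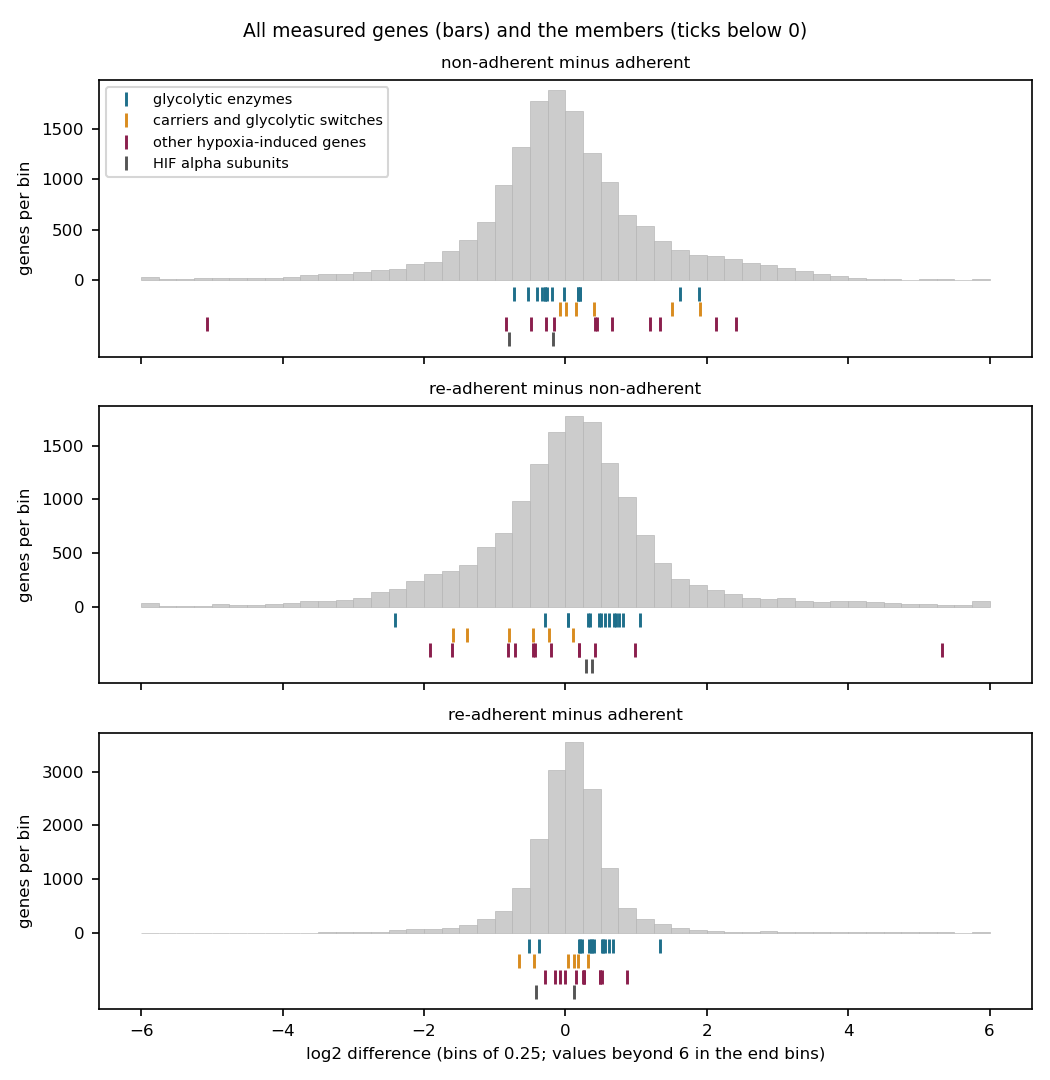
Number of measured genes per bin of log2 difference (grey bars) for the 3 comparisons, with each member as a tick below 0, coloured by role. In the upper panel most glycolytic enzymes sit within the central peak and the other hypoxia-induced genes spread from -5.07 to 2.41, and in the lower panel the enzymes have a median of 0.38, which spike-in scaling turns to -0.13.

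Re-adherent cells were close to adherent cells for most members. None of the 35 was over 2-fold lower (4.90% of all genes were) and Aldoc alone was over 2-fold higher (4.84% of all genes were), while no member passed 4-fold (2.64% of all genes did). Smaller differences were not spread evenly. Of the 15 glycolytic enzymes, 13 lay higher in re-adherent cells (6 with spike-in scaling and 10 without scaling), with a median of 0.38, while Hk2 and Eno2 lay lower, and across all genes 8630 of 15394 lay higher. The relative medians were 0.31 for the enzymes, 0.01 for the carriers and switches and 0.19 for the other hypoxia-induced genes. Beyond 2 technical errors lay 45.7% of the members and 30.2% of all genes.

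The brightness of the enzyme probes moved with this shift. Of the 15 enzymes, 8 (Gpi1, Aldoa, Tpi1, Gapdh, Pgk1, Pgam1, Eno1 and Ldha) were among the 770 genes with the brightest probes, the top 5%. Over these 770 genes the median log2 difference was -0.35 in suspension, 0.54 on re-adhesion and 0.28 for re-adherent against adherent cells, while the other genes had medians of -0.05, 0.05 and 0.05. The 8 enzymes had medians of -0.15, 0.63 and 0.47 in the same comparisons. The shift of the enzymes was thus shared in direction by the brightest genes as a whole, and the part of probe brightness in it was not tested. With spike-in scaling the median of all genes was -0.44 for re-adherent against adherent cells, and Pfkl, Pfkp, Pfkm, Gapdh, Pgk1, Eno1 and Ldha then lay below adherent cells.

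Other genes of the same pathways, a list of 68 of which 60 were measured, changed in both directions. In suspension 15 were over 2-fold higher and 10 lower (17.2% and 14.7% of all genes were), on re-adhesion 12 were higher and 12 lower (15.6% and 16.3%), and in re-adherent against adherent cells 2 were higher and 3 lower (4.84% and 4.90%). Among the other glycolytic enzymes and isoforms, 2 of 8 were over 2-fold higher and 1 lower in suspension. Hk3, the hexokinase known from leukocytes, had scaled signals of 2.12, 18.1 and 3.05, an 8.57-fold rise in suspension. Eno3, the muscle enolase, had 6.73, 1.17 and 9.41, a 5.77-fold fall in suspension, in the direction of Eno1 and opposite to Eno2. Pkm, which makes pyruvate, had 106, 98.7 and 154, a course like those of Tpi1 and Pgk1. The macrophage markers given above moved in the direction of Hk3, and their part in it was not tested.

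**Figure D4:**
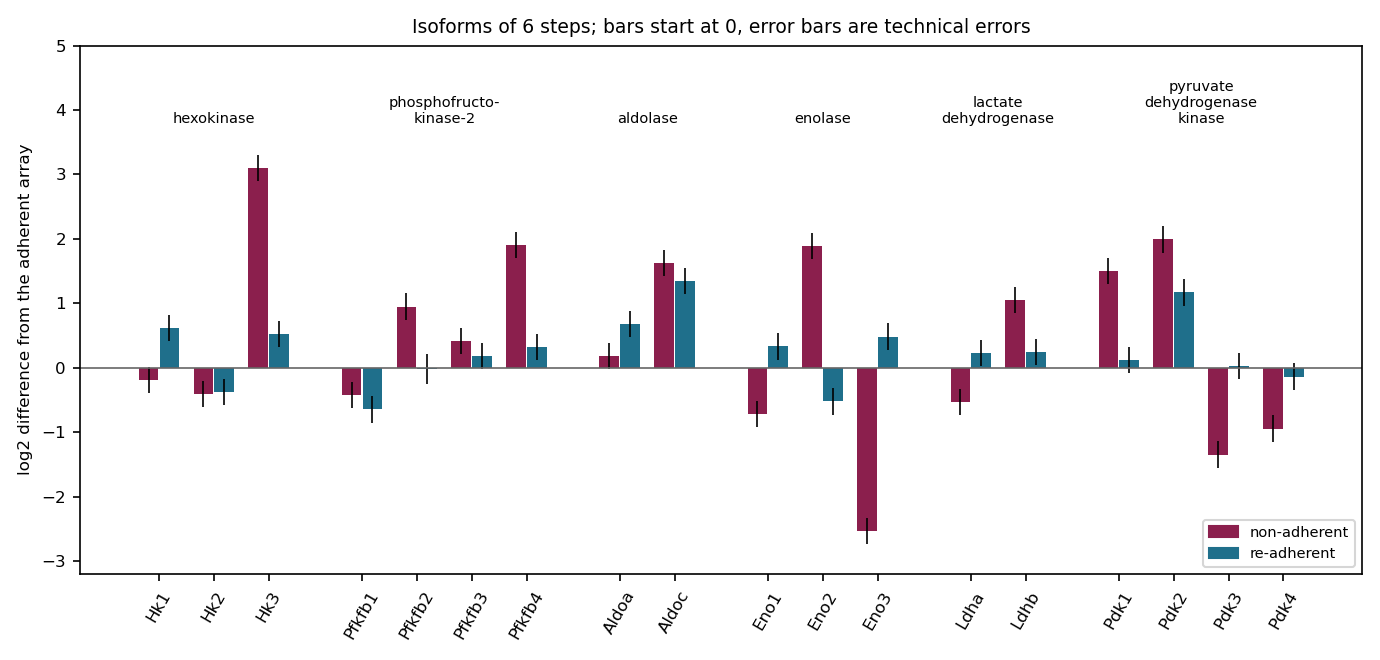
Log2 difference from the adherent array (bars from 0) with its technical error for the measured isoforms of 6 steps, in non-adherent (red) and re-adherent (blue) cells; 1 array per state. Past 2-fold in suspension, Hk3, Pfkfb4, Aldoc, Eno2, Ldhb, Pdk1 and Pdk2 stand above 0, and Eno3 and Pdk3 below it. The choice of steps was made after the values were seen.

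Among 17 other carriers and pyruvate switches, 4 were over 2-fold higher and 3 lower in suspension, where 17.2% and 14.7% of all genes were. Slc2a6, a sugar carrier of the lysosome, had 0.422, 3.91 and 1.91, and it stayed 4.53-fold over adherent cells after re-adhesion. Of 9 other HIF factors and regulators none was over 2-fold higher in suspension and 2 were lower.

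Of 26 further hypoxia-induced genes, 9 were over 2-fold higher in suspension and 4 lower, where 17.2% and 14.7% of all genes were. Car12, which encodes a second membrane carbonic anhydrase, rose 4.44-fold and Angptl4, the gene of a lipoprotein lipase inhibitor, 4.39-fold. Hmox1, the haem-degrading enzyme gene, had scaled signals of 48.1, 228 and 86.9, a 4.73-fold rise, and Zfp395 rose 4.49-fold. Against these, Stc2, which encodes the secreted stanniocalcin 2, had 0.705, 0.0757 and 0.688, a 9.31-fold fall, and Errfi1, an inhibitor of growth factor receptors, fell 4.58-fold. The hypoxia-linked genes outside the chosen members also included strong rises and strong falls on the same array.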

How the data were processed

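RNA from 3 samples, 1 per state and each a pool of hearts, was hybridised to 1-colour Agilent arrays. Per the labels and file headers, the deposited scanner files hold an intensity for each spot, background-subtracted and spatially detrended by Agilent Feature Extraction 10.10.1.1. The authors' series matrix holds intensities too, equal to the processed signal times 1 constant per array (1.52, 1.52 and 1.62); the name of that normalisation is not given in the sources used here. The members and gene lists were chosen with earlier results of these data known.

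Flagged spots (154, 180 and 175) and controls were left out, and no spot was saturated. Log2 processed signal was reduced by the array's 75th percentile, spots of a probe were averaged, and probes were named through RefSeq transcripts (27229 of 55665 probes). A probe entered if any array had it well above background, and the probe with the highest mean stood for its gene. Technical errors combine the software's spot errors and cover neither culture nor animals. A change meant over 2-fold, without a test, because each group had 1 array. All members are named. Other pathway genes are named past 4-fold if well above background on both arrays, plus Pkm, Arnt and Vhl, and past 2-fold in the isoform figure. Isoform comparisons and the brightest 5% of genes were added after the values were seen.

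Python 3.11.15 (numpy 2.4.6, pandas 2.3.3) and, for the normexp alternative, R 4.3.3 with limma 3.58.1 were used, after the scripts had been tested on simulated data. Normexp (offset 50) used the median signal, since the scanner files read here held no mean signal column. Alternatives covered scaling, background, filters, probe choice, bright patches, thresholds and the mean in place of the median.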

Additional observations from a re-analysis of the deposited data

How the results depend on the processing

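Against 13 other ways of scaling, correcting, filtering and choosing probes, 24 of 35 members kept their sign in suspension, 24 on re-adhesion and 15 in re-adherent against adherent cells. All 9, 7 and 1 members past 2-fold kept their sign in every alternative that gave a value, and 7, 6 and 0 of them stayed past 2-fold in all; the exceptions were Bnip3l (0.85) and Ndrg1 (0.98) in suspension and Aldoc (0.84) in re-adherent cells, all with spike-in scaling, and Eno1 on re-adhesion. The 5 members over 2-fold lower on re-adhesion became 8 without scaling, 7 with the authors' values, 4 without 5 by 5 patches, 8 at 1.5-fold and 1 at 4-fold. The 2 over 2-fold higher on re-adhesion became 1 without scaling, with the percentile over probes well above background on all arrays, with quantile normalisation, with the authors' values, with spike-in scaling and at 4-fold, 3 with the mean over probes and 8 at 1.5-fold. In suspension the 1 lower member became 4 with spike-in scaling, where Eno1 (-1.07), Higd1a (-1.18) and Hif1a (-1.15) joined Adm, and 4 at 1.5-fold. The 8 higher became 6 with spike-in scaling, 7 without the patches, 9 at 1.5-fold and 2 at 4-fold. In re-adherent against adherent cells the count of 0 lower became 2 with spike-in scaling and 1 at 1.5-fold, and the 1 higher became 0 with spike-in scaling, 0 at 4-fold and 4 at 1.5-fold. The relative median of the enzymes on re-adhesion turned to -0.0065 with quantile normalisation, and that of the other hypoxia-induced genes was -0.70 with no filter on dim probes, which adds Mxi1. With the mean in place of the median, the values in suspension were 0.15 for the enzymes, 0.72 for the carriers and switches and 0.22 for the other hypoxia-induced genes, and on re-adhesion 0.20 for the enzymes and 0.0038 for the other hypoxia-induced genes, where Adm alone was at 5.33. Leaving out Aldoc and Eno2 touches the enzyme medians only. That setting and leaving out patches of 5 by 5 spots that deviated by over 0.5 were both chosen after seeing the data. Without the patches, the relative median of the carriers and switches in re-adherent against adherent cells went from 0.01 to -0.07. It lay below 0 in some other settings too. The re-adherent spot of Ankrd37 lay in such a patch (-0.51), which leaves Ankrd37 without a value there. The non-adherent spot of the brighter Pfkfb3 probe lay in such a patch too (0.56). Scaling moved the median of all genes in suspension from -0.07 to -0.42 with spike-ins, and on re-adhesion from 0.08 to -0.28 without scaling. The cause of these differences was not tested. No paired analysis was possible because a state is a single array, and for the same reason no replicate could be left out. With 1 array per state, differences between cultures cannot be told apart from differences between states, and small differences such as the enzyme shift in re-adherent cells rest on the scaling chosen.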
